A study of Mus musculus with 18 samples.

Results

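The 10 genes described here regulate mitochondrial biogenesis, the building of new mitochondria. They are the coactivators Ppargc1a, Ppargc1b and Pprc1, the nuclear receptors Esrra and Esrrg, the transcription factors Nrf1 and Gabpa, and the mitochondrial DNA factors Tfam, Tfb2m and Polg. They were chosen by name from the 23420 genes of the count tables, with earlier results of these data known. All 10 passed the filter on low counts. RNA was sequenced from primary cardiac fibroblasts of neonatal CD1 mice undergoing direct cardiac reprogramming, in which a retrovirus carrying Mef2c, Gata4 and Tbx5 on a single polycistronic transcript drives fibroblasts towards a cardiomyocyte-like state. The study lowered Mtfr1l, which belongs to a family of mitochondrial fission regulators, and Opa1, whose product fuses the inner membranes of mitochondria.

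There are 4 kinds of library in the second of the series' 2 sample sets, each with n = 3 and each carrying the reprogramming virus: one with a non-targeting short hairpin RNA (shNT), a hairpin against Mtfr1l (shMtfr1l), a hairpin against Opa1 (shOpa1), and both hairpins (the double knockdown). Replicates 1, 2 and 3 of every group are titled day 7, day 8 and day 9, so the day and the replicate cannot be told apart. The genotype field numbers the Opa1 hairpin 1, 2 and 3 across the same replicates, and the labels do not say whether these were different hairpins. The labels name no sort, so each library may mix fibroblasts and reprogrammed cells. The first set adds 1 shNT and 1 shMtfr1l reprogramming sample at day 7, for which there is no replicate check. The second-set descriptions call the libraries of a group biological replicates 1, 2 and 3. Nothing in the labels states that these came from separate animals, so the p-values measure the spread between these libraries.

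Mitochondrial biogenesis needs proteins from both genomes. PGC-1 coactivators (Ppargc1a, Ppargc1b and Pprc1 encode PGC-1α, PGC-1β and the PGC-1-related coactivator) bind no DNA themselves and act through factors such as the estrogen-related receptors, NRF1 and GABP, which bind promoters of nuclear genes for respiratory proteins. Among those targets are TFAM and TFB2M, which start transcription of mitochondrial DNA, and the replication machinery with its polymerase, POLG. PGC-1α is known from heart, muscle and brown fat, where energy demand is high.

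Total counts per library ran from 16205862 to 25317069, and levels are given in CPM, the usual unit of counts relative to the library total, scaled by the trimmed mean of M values (TMM). The limit that a count of 0 allows, 3 counts, was worth 0.117 to 0.183 CPM. Since each read of a pair was counted, counts are not independent and this limit is too low. The targeted genes matched the labels. Mtfr1l stood at 71.85 ± 4.17 CPM (SD, n = 3) in shNT and 16.4 ± 2.88 in shMtfr1l, and Opa1 at 63.1 ± 8.33 CPM in shNT and 8.96 ± 3.16 in shOpa1. Both knockdowns were shallower in the double knockdown (edgeR adjusted p = 8.08e-05 for Mtfr1l and 0.000488 for Opa1), at 27.2 ± 4.15 CPM for Mtfr1l and 18.3 ± 2.34 CPM for Opa1. The summed levels of 7 fibroblast markers were 21970 to 23780 CPM in shNT and 21060 to 22170 in shMtfr1l. They were 26200 to 26910 CPM in shOpa1 and 24100 to 26070 in the double knockdown. The sums of the 6 libraries with the Opa1 hairpin thus lay above those of the other 6. Most of this sum was Col1a1 and Col3a1 (means of 12500 and 7255 CPM in shNT), and the 7 markers did not move together. Against shNT, 3 were called higher and 3 lower in shOpa1, and 2 higher and 3 lower in the double knockdown. Pdgfra and Tcf21 were called lower in both. Summed cardiomyocyte markers (8 genes) stood at 2393 to 2433 CPM in shNT. They stood at 3281 to 3521 CPM in shMtfr1l, 1982 to 2032 in the double knockdown and 1466 to 1633 in shOpa1. Macrophage and leukocyte markers (4 genes) summed to 186.5 to 233 CPM in the double knockdown and 49.8 to 98.3 CPM in shNT. They varied widely between libraries in shMtfr1l (29.5 to 133.5 CPM) and shOpa1 (60.2 to 179 CPM). Epicardial markers (162.7 to 174.7 CPM) and smooth muscle markers (4139 to 4509 CPM) summed highest in shNT, with 116.3 to 141.7 and 3378 to 3825 CPM in the other groups. Most of the smooth muscle sum was Acta2 and Tagln (means of 2884 and 1250 CPM in shNT). Of its 5 markers, 3 were called lower than shNT in each other group and 2 were not called. Endothelial markers summed highest in shMtfr1l (32.7 to 37.8 CPM, elsewhere 15.2 to 27.6). Of these 5 markers, 1 was called there against shNT, Kdr, which was higher, and 4 were not called. In bulk RNA, fewer cells of a type and less RNA per cell cannot be told apart. One library stood apart: shMtfr1l replicate 1 held the adipocyte genes Adipoq (15.2 CPM), Plin1 (5.98) and Cidec (19.3), each with 0 counts in the others.

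Per kilobase of annotated exon, the regulators fell into 2 tiers. In shNT, Esrra (16.1 ± 1.64 CPM per kilobase, SD, n = 3) and Gabpa (15.3 ± 1.01) were highest, and their ranges overlapped. Polg (13.6 ± 0.695) and Pprc1 (11.4 ± 1.22) came next, followed by Tfam (7.68 ± 0.921), each apart from its neighbours. Nrf1 (4.95 ± 0.84) and Tfb2m (4.44 ± 0.599) overlapped each other. Far below were Ppargc1b (0.724 ± 0.126), Ppargc1a (0.482 ± 0.0728) and Esrrg (0.3 ± 0.205), the last 2 of which overlapped. Ppargc1b, Ppargc1a and Esrrg were the lowest 3 in each of the 4 groups. Esrra had the highest mean in each, but its range overlapped that of Gabpa in shNT and shMtfr1l and that of Polg in the double knockdown. Within that bottom tier the order changed: Ppargc1a stood above Esrrg in shNT, shMtfr1l and shOpa1 and below it in the double knockdown, with overlapping ranges in all 4.

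With Opa1 knocked down, the PGC-1 family split: Ppargc1a fell and Pprc1 rose. Polg also rose, and Esrra rose by a smaller amount. In shOpa1 against shNT, 3 regulators were called higher and 1 lower at an adjusted p under 0.05 (edgeR quasi-likelihood test, Benjamini-Hochberg), where 28.8% of all 14162 genes tested were called, 14% higher and 14.8% lower. Groups did not overlap for 4 of the 10, against 40.5% of all genes. The double knockdown against shMtfr1l also lowers Opa1 and shares no library with that comparison. Mtfr1l was higher in the double knockdown than in shMtfr1l (27.2 against 16.4 CPM), so these changes cannot be told apart. There 2 regulators were called higher and 1 lower, where 21.5% of all genes were called, 10.2% higher and 11.3% lower, and 5 did not overlap, against 37%. The double knockdown against shNT, which shares libraries with both, had 3 higher and 1 lower, where 23.4% were called, 11.8% higher and 11.6% lower, and 5 did not overlap, against 38.9%. The median log2 fold change of the 10 was 0.00, 0.06 and 0.15 in these comparisons, in the order given, against 0.01, 0.00 and 0.00 over all genes. The counts are near or little above the background, so the number of calls is no result about the regulators.

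With Mtfr1l knocked down, none of the 10 was called in the main edgeR fit, while some other edgeR settings called Ppargc1a or Ppargc1b against shNT. Against shNT 9.79% of all genes were called, 5% higher and 4.79% lower. The unadjusted p was under 0.05 for 2 regulators, DESeq2 called 2, and 2 did not overlap, against 26% of all genes. In the double knockdown against shOpa1, 4.22% of all genes were called, 2.05% higher and 2.17% lower. Opa1 itself was higher in the double knockdown (18.3 against 8.96 CPM). The added Mtfr1l hairpin and the weaker Opa1 knockdown cannot be told apart in this comparison. There the unadjusted p was under 0.05 for 1 regulator, DESeq2 called 0, and 5 did not overlap, against 21.7%. The median of the 10 was 0.08 and 0.14, against 0.00 over all genes in both. Shares of all genes for the unadjusted p and for DESeq2 are not given here. Those counts are therefore no result about the regulators.

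**Figure D1:**
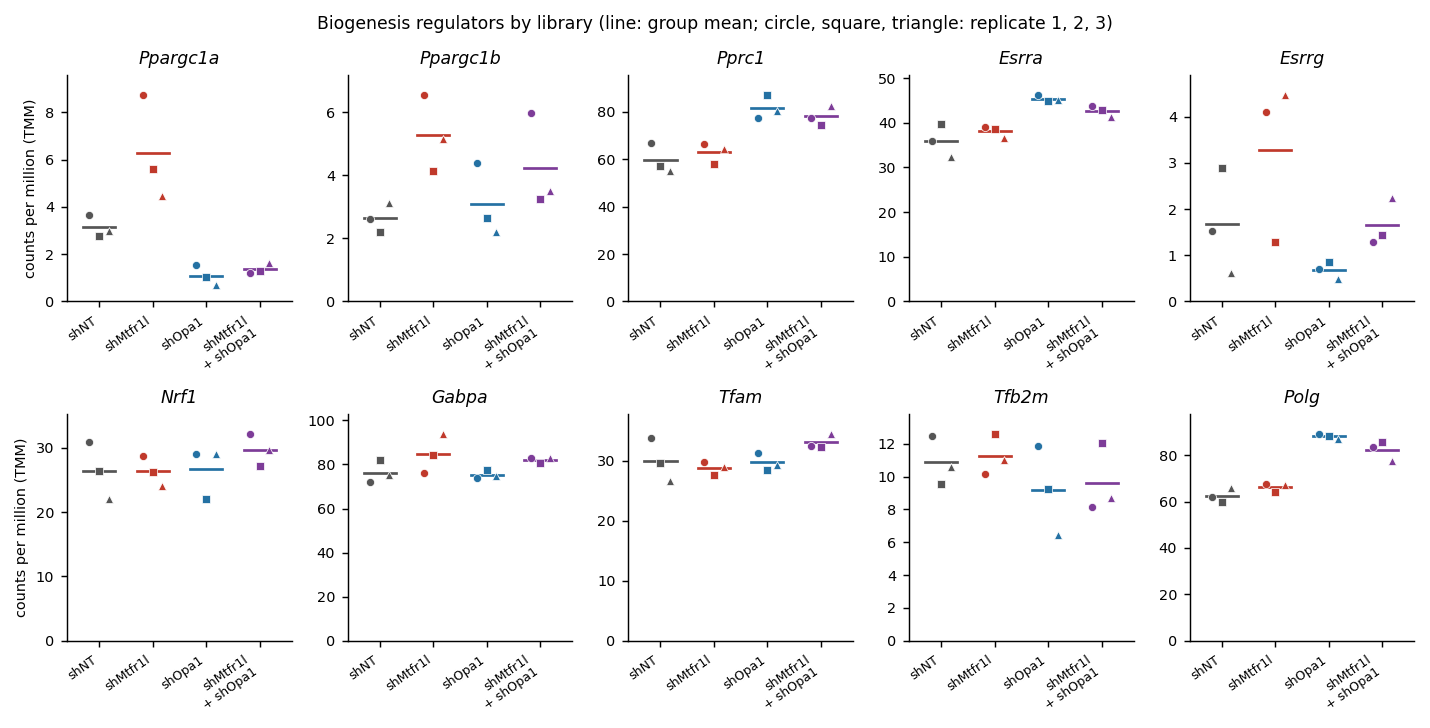
TMM-scaled CPM of the 10 regulators in each of the 12 second-set libraries, 1 panel per gene with its own axis from 0; points are libraries (circle, square and triangle for replicates 1, 2 and 3) and lines are group means. Ppargc1a is lowest in the 6 libraries with the Opa1 hairpin, where Polg and Pprc1 are highest, while Nrf1, Tfam and Tfb2m overlap between shNT and each knockdown group.

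Ppargc1a (chr5:51454249-51553921, minus strand, mm10) encodes PGC-1α, the founding member of the coactivator family. Its level was 3.66, 2.76 and 2.98 CPM in shNT and 8.73, 5.61 and 4.47 in shMtfr1l. It was 1.535, 1.05 and 0.715 in shOpa1 and 1.2, 1.28 and 1.64 in the double knockdown. The 6 libraries with the Opa1 hairpin all lay below the 6 without it, the reverse of the summed fibroblast markers, and the 3 shMtfr1l libraries were the highest of the 12. Across libraries the level spanned 12.2-fold, the widest range of the 10, on 15 to 168 counts per library. In shOpa1 it was 2.84-fold lower than in shNT (log2 fold change -1.504 ± 0.37, SE, edgeR adjusted p = 0.00341), and this held in every alternative run (adjusted p from 0.000455 to 0.0336). In the double knockdown it was 4.555-fold lower than in shMtfr1l (log2 fold change -2.19 ± 0.36, edgeR adjusted p = 9.81e-05). Without shMtfr1l replicate 1, the library with the adipocyte genes, the log2 fold change was -1.87 (edgeR adjusted p = 0.00238). Against shNT the double knockdown was 2.27-fold lower (log2 fold change -1.18 ± 0.36, edgeR adjusted p = 0.0193). That call was lost without shNT replicate 1 (edgeR adjusted p = 0.0643), without double knockdown replicate 1 (0.0679) or 2 (0.0593), and without all libraries of replicate 1 (0.166) or 2 (0.0922). The log2 fold change lay between -1.32 and -1.06 whichever single library of these groups was left out. The double knockdown and shOpa1 alone did not differ detectably in Ppargc1a, with a ratio of 1.25 and a 95% confidence interval of 0.724 to 2.16.

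In shMtfr1l the groups also did not overlap, and Ppargc1a averaged 6.27 ± 2.21 CPM against 3.13 ± 0.473 in shNT (SD, n = 3). This difference of 1.01 ± 0.34 on the log2 scale missed the threshold (edgeR adjusted p = 0.0682). The call turned on the test: it passed with DESeq2 (adjusted p = 0.0344), with a fit of only these groups (edgeR, 0.04) and with edgeR's newer quasi-likelihood method (0.0189), and also without shMtfr1l replicate 3 (edgeR, 0.0476). The highest Ppargc1a value belongs to shMtfr1l replicate 1, the library that holds the adipocyte genes. Without it the log2 fold change was 0.69 (edgeR adjusted p = 0.386), and the other shMtfr1l libraries, at 5.61 and 4.47 CPM, still lay above all 3 shNT libraries. Their adipocyte markers summed to 2.04 and 1.86 CPM against 2.55 to 5.04 CPM in shNT. The summed cardiomyocyte markers had the same order over the 4 groups as mean Ppargc1a, highest in shMtfr1l and lowest in shOpa1. Most of that sum was Tnnt2 (mean of 2035 CPM in shNT), and the 8 markers did not all share its order. In the double knockdown against shNT, Myh6 (86.8 against 50.8 CPM) and Actc1 (178.2 against 145.4) were called higher and 3 markers lower. The part of these markers in the result was not tested. Mef2c, counted from the endogenous gene and the vector together, was 296 to 350 CPM in shMtfr1l, 245.8 to 295 in shNT, 278 to 292 in the double knockdown and 252 to 280 in shOpa1.

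**Figure D2:**
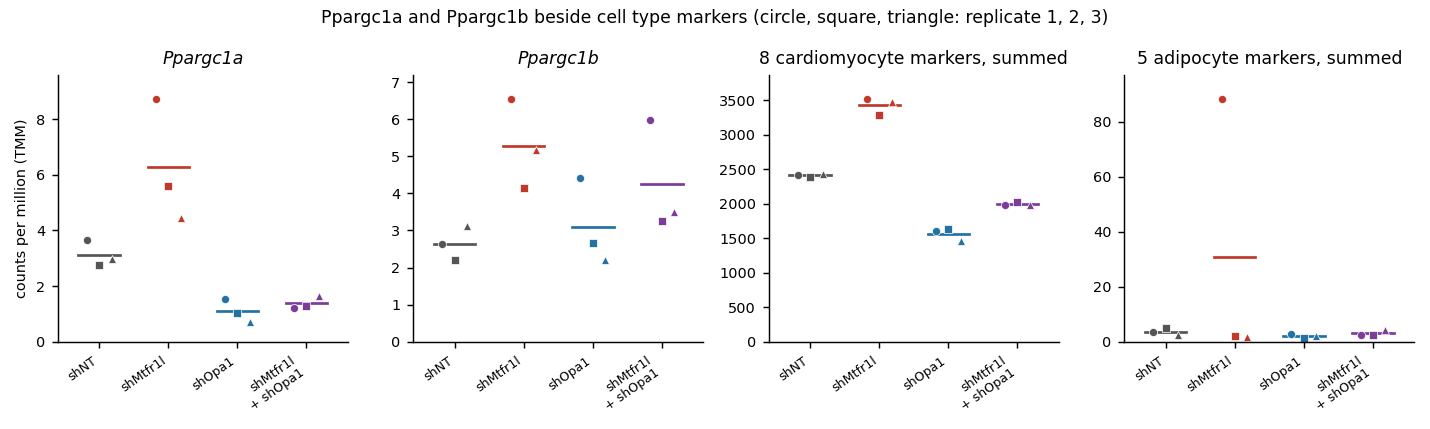
TMM-scaled CPM of Ppargc1a, Ppargc1b, 8 summed cardiomyocyte markers and 5 summed adipocyte markers in the 12 second-set libraries; points are libraries (circle, square and triangle for replicates 1, 2 and 3) and lines are group means, on axes from 0. Replicate 1 of shMtfr1l has the highest Ppargc1a (8.73), the highest Ppargc1b (6.55) and the only adipocyte sum above 5.04, at 88.25 CPM.

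Ppargc1b (chr18:61298136-61400431, minus strand, mm10) encodes PGC-1β, which shares many partners with PGC-1α. It was not called in any comparison between groups, whether Opa1 or Mtfr1l was lowered. Its level was 2.625, 2.2 and 3.12 CPM in shNT and 6.55, 4.15 and 5.16 in shMtfr1l. It was 4.41, 2.66 and 2.19 in shOpa1 and 5.97, 3.27 and 3.51 in the double knockdown. Both groups with the Mtfr1l hairpin lay wholly above shNT, while shOpa1 overlapped it. The difference between shMtfr1l and shNT was 1.00 ± 0.33 on the log2 scale, 2-fold, and missed the threshold (edgeR adjusted p = 0.0551). It was called with the replicate as a block (edgeR adjusted p = 0.0467), with DESeq2 (0.0322), with robust moderation (0.0386) and without the filter on low counts (0.0229). It was also called without shMtfr1l replicate 2 (0.0449) and in a fit of only these groups (0.0453). Leaving out shMtfr1l replicate 1 gave a log2 fold change of 0.81 (edgeR adjusted p = 0.231). In shOpa1 the log2 fold change was 0.22 ± 0.33 (edgeR adjusted p = 0.672). Replicate 1 was the highest of its group in shMtfr1l, shOpa1 and the double knockdown, but not in shNT.

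Pprc1 (chr19:46056539-46072909, plus strand, mm10) encodes the PGC-1-related coactivator, which is known to respond to growth signals. It rose in the comparisons where Ppargc1a fell, and per length of transcript its level was far higher. Its level was 66.9, 56.9 and 55 CPM in shNT and 66.2, 58.1 and 64.4 in shMtfr1l. It was 77.5, 86.9 and 80.5 in shOpa1 and 77.4, 74.4 and 82.25 in the double knockdown. Every library with the Opa1 hairpin exceeded every library without it, as for the summed fibroblast markers, whose part in the results for Ppargc1a, Pprc1, Esrra and Polg was not tested. Pprc1 rose by 0.46 ± 0.08 on the log2 scale in shOpa1 against shNT, 1.37-fold (edgeR adjusted p = 0.000141). In the double knockdown it rose 1.24-fold over shMtfr1l (log2 fold change 0.31 ± 0.08, edgeR adjusted p = 0.00755) and 1.31-fold over shNT (0.39 ± 0.08, adjusted p = 0.00105). The call against shMtfr1l was lost without all libraries of replicate 2 (edgeR adjusted p = 0.0643) or 3 (0.0595). In shMtfr1l against shNT the ratio was 1.06 with a 95% confidence interval of 0.94 to 1.19.

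Of the estrogen-related receptors, Esrra rose with Opa1 knockdown and Esrrg was not called in any comparison between groups. Esrra (chr19:6910977-6921808, minus strand, mm10) encodes ERRα, a main DNA-binding partner of the PGC-1 coactivators. Its level was 35.9, 39.8 and 32.4 CPM in shNT and 39.1, 38.7 and 36.5 in shMtfr1l. It was 46.2, 44.9 and 45.2 in shOpa1 and 43.85, 42.9 and 41.4 in the double knockdown. The groups with the Opa1 hairpin lay above those without it. Esrra rose 1.26-fold in shOpa1 against shNT (log2 fold change 0.33 ± 0.09, edgeR adjusted p = 0.0056), a call lost without all libraries of replicate 1 (0.0612) or 3 (0.0912). The 1.19-fold rise in the double knockdown against shNT was marginal (edgeR adjusted p = 0.0453) and was lost when any single library of these groups other than shNT replicate 2 was left out, with adjusted p from 0.0643 to 0.223. Against shMtfr1l, the double knockdown stood 0.16 ± 0.09 higher on the log2 scale, which did not pass (edgeR adjusted p = 0.204). Exons of Esrra share 50 bases with Trmt112 on the other strand, which had a log2 fold change of 0.06 in shOpa1 (edgeR adjusted p = 0.8088).

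Esrrg (chr1:187609006-188214884, plus strand, mm10) encodes ERRγ, known for driving oxidative genes in the heart after birth. It had 10 to 79 counts per library and the lowest mean level per length of the 10 in shNT, shMtfr1l and shOpa1. Its level was 1.53, 2.885 and 0.615 CPM in shNT and 4.11, 1.285 and 4.47 in shMtfr1l. It was 0.693, 0.856 and 0.477 in shOpa1 and 1.29, 1.44 and 2.23 in the double knockdown. Libraries of shNT and of shMtfr1l spread widely, and they overlapped. The log2 fold change was -1.31 ± 0.57 in shOpa1 against shNT, and did not pass (edgeR adjusted p = 0.0913), nor did 0.96 ± 0.53 in shMtfr1l against shNT (0.305). The double knockdown lay wholly above shOpa1, with a log2 fold change of 1.28 ± 0.57 (edgeR adjusted p = 0.248). The shOpa1 difference turned on single shNT libraries: it was called without shNT replicate 3 (log2 fold change -1.71, edgeR adjusted p = 0.0293) and was -0.64 without shNT replicate 2 (0.517). It was also called without the filter on low counts (0.0377).

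**Figure D3:**
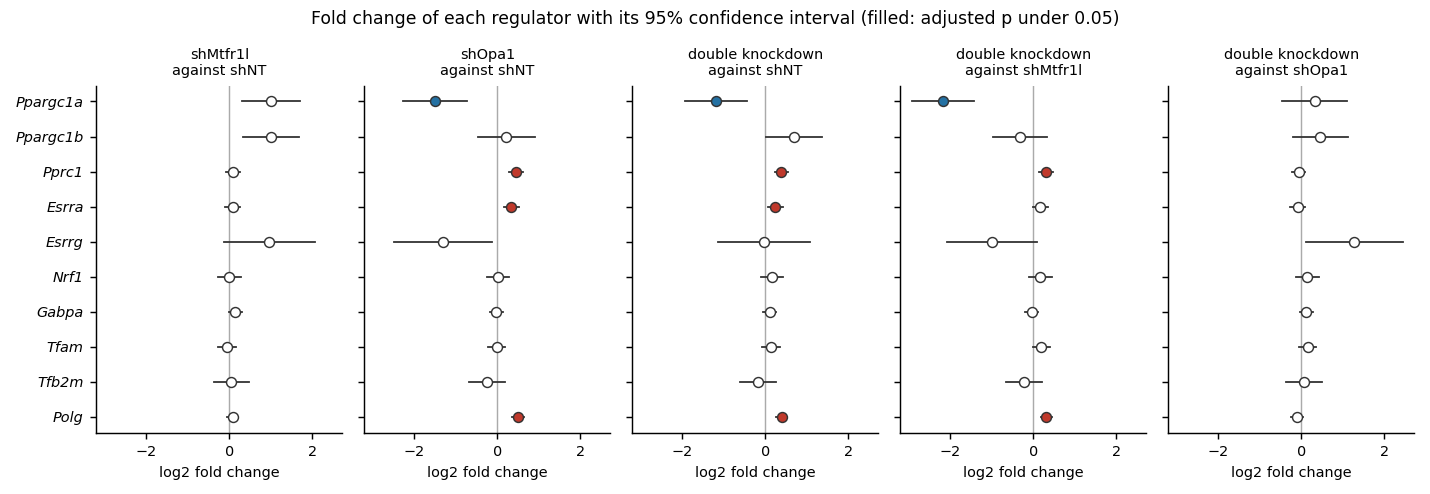
Log2 fold change (x axis) of the 10 regulators (rows) in 5 comparisons of the second set, with 95% confidence intervals of the edgeR fit; filled points passed an adjusted p under 0.05, red for higher and blue for lower. Ppargc1a is the only filled point on the lower side, in the 3 comparisons where Opa1 was lowered in 1 of the groups, and intervals are widest for Esrrg.

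Neither transcription factor of the NRF kind was called in any comparison between groups. Nrf1 (chr6:30047988-30153458, plus strand, mm10) encodes nuclear respiratory factor 1. It is a different gene from the stress regulator Nfe2l1, which is also called NRF1. Its level ran from 22 to 32.1 CPM over the 12 libraries, with means of 26.5 ± 4.49 in shNT and 26.3 ± 2.39 in shMtfr1l (SD, n = 3). Its means were 26.7 ± 4.06 CPM in shOpa1 and 29.6 ± 2.44 in the double knockdown. All groups overlapped with shNT, and the 95% confidence interval of the shOpa1 to shNT ratio was 0.837 to 1.22. Gabpa (chr16:84835124-84863778, plus strand, mm10), the DNA-binding subunit of GABP or NRF-2, averaged 76.3 ± 5.02, 84.6 ± 8.83, 75.3 ± 1.85 and 82.1 ± 1.33 CPM in the same order. The double knockdown lay above shOpa1 in all libraries, by 0.13 ± 0.07 on the log2 scale (edgeR adjusted p = 0.427). Exons of Gabpa share 123 bases with Atp5j on the other strand, so its counts depend on the strand setting of the counting.

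Tfam (chr10:71225477-71238044, minus strand, mm10), which packages mitochondrial DNA and starts its transcription, was 33.9, 29.6 and 26.7 CPM in shNT and 29.8, 27.7 and 29.1 in shMtfr1l. It was 31.4, 28.5 and 29.3 in shOpa1 and 32.5, 32.4 and 34.4 in the double knockdown. The double knockdown lay above shMtfr1l and shOpa1 in every library but overlapped shNT. None of these differences passed, the widest being 0.20 ± 0.10 on the log2 scale against shMtfr1l (edgeR adjusted p = 0.182). For shOpa1 against shNT the 95% confidence interval of the ratio was 0.856 to 1.15. Tfb2m (chr1:179528056-179546267, minus strand, mm10), the other initiation factor, ran from 6.44 to 12.6 CPM over the libraries. Its groups all overlapped, and the log2 fold change in shOpa1 was -0.24 ± 0.21 (edgeR adjusted p = 0.429).

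Polg (chr7:79449383-79466273, minus strand, mm10), the catalytic subunit of the mitochondrial DNA polymerase, had the smallest adjusted p of the 10 in shOpa1 against shNT. Its level was 62.1, 59.6 and 65.9 CPM in shNT and 67.4, 64 and 67 in shMtfr1l. It was 88.9, 88.4 and 87 in shOpa1 and 83.5, 85.6 and 77.5 in the double knockdown. The 6 libraries with the Opa1 hairpin lay above the other 6, and the 3 of shOpa1 above the 3 of the double knockdown. Polg rose 1.41-fold in shOpa1 against shNT (log2 fold change 0.49 ± 0.07, edgeR adjusted p = 5e-06). It rose 1.31-fold in the double knockdown against shNT (0.39 ± 0.07, edgeR adjusted p = 0.000142) and 1.24-fold against shMtfr1l (0.31 ± 0.07, adjusted p = 0.00139), a call lost without all libraries of replicate 2 (0.0617). The step from shOpa1 to the double knockdown was -0.10 ± 0.07 (edgeR adjusted p = 0.499). Exons of Polg share 398 of 4596 bases with Fanci on the other strand. Fanci, a DNA repair gene at a mean of 16.3 CPM, also rose in shOpa1 (log2 fold change 0.58, edgeR adjusted p = 0.001607). Its part in the Polg counts was not tested.

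The promoters of regulators that rose with Opa1 knockdown are shown to let their sequence be set beside those values. The stretch before the start site of Pprc1 (chr19:46056289-46056538, plus strand) and Esrra (chr19:6921814-6922058, minus strand) is printed 5′ to 3′, from RefSeq on GRCm38.p6. Capitals mark a match to the NRF1 motif GCGCANGCG.
Pprc1: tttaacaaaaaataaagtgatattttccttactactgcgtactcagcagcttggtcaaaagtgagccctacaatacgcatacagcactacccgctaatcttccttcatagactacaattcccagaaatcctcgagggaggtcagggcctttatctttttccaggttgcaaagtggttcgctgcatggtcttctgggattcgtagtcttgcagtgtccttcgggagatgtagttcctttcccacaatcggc
Esrra: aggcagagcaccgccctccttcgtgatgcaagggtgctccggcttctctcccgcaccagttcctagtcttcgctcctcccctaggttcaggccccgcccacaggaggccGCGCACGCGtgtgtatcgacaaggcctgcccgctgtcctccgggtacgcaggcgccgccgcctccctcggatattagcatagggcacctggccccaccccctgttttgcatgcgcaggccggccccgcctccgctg
For Polg (chr7:79466293-79466322, minus strand), which rose, and Tfam (chr10:71238073-71238102, minus strand), which was not called, the 30 bases around a match to the ETS motif CCGGAAGT, which GABP can bind, are given with the match in capitals.
Polg: gaggacctcacCCGGAAGTccctctgcacc
Tfam: cctgccgcggaCCGGAAGTccgggcttccc
The 2 matches sit at nearly the same place, 38 to 31 bases before the start in Polg and 47 to 40 bases before it in Tfam. The ETS motif is held by 3.89% of all 32851 promoter windows of 300 bases, on either strand, and the NRF1 motif by 6.25%. Tfb2m also holds the NRF1 motif, 13 to 21 bases past its start. Windows were searched for 9 of the 10 regulators, and Ppargc1b was left out of the search. No window of the other regulators searched held either motif. None of the windows searched for the regulators held the ERR motif AAGGTCA (4.72% of all windows), the cyclic AMP response element TGACGTCA (1.79%) or the MEF2 motif CTAAAAATA (0.517%). The Ppargc1a window follows a start site upstream of the one in the count tables, so the promoter next to the counted transcript was not searched.

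Whether the effect of one knockdown differed with the other was tested by the interaction, which called 2.86% of all genes, 1.27% with a positive and 1.59% with a negative term. None of the 10 regulators passed in edgeR or DESeq2, and 0 had an unadjusted p under 0.05 in edgeR. The nearest was Polg, with -0.18 ± 0.09 on the log2 scale (edgeR adjusted p = 0.379), and for Ppargc1a the 95% confidence interval ran from -1.75 to 0.38. Each knockdown was also averaged over both backgrounds, 6 libraries against 6. That contrast was added after the data were seen and draws on the same libraries as the comparisons above. Both knockdowns were shallower in the double knockdown, and the part of this in the interaction and the averages was not tested. With Opa1 knockdown 5 of 10 regulators were called, where 37.5% of all genes were, 19.1% higher and 18.5% lower. Ppargc1a (log2 fold change -1.85 ± 0.26, edgeR adjusted p = 4.84e-06) and Esrrg (-1.15 ± 0.39, adjusted p = 0.0221) fell. Polg (0.40 ± 0.05, edgeR adjusted p = 4.01e-07), Pprc1 (0.38 ± 0.06, 1.18e-05) and Esrra (0.25 ± 0.06, 0.00273) rose. With Mtfr1l knockdown, Ppargc1b was the single regulator called (0.73 ± 0.23, edgeR adjusted p = 0.0422), where 10.6% of all genes were, 5.24% higher and 5.32% lower. Without shMtfr1l replicate 1 the calls of Ppargc1b (0.64, edgeR adjusted p = 0.123) and of Esrrg under Opa1 knockdown (-1.055, adjusted p = 0.0609) were lost, and Gabpa was called higher with Mtfr1l knockdown (0.17, adjusted p = 0.0422). Ppargc1a (0.66 ± 0.26, adjusted p = 0.108) and Esrrg (1.12 ± 0.39, adjusted p = 0.068) did not pass with all libraries.

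Factors known to act on these regulators were listed separately. This list and those of the next paragraphs were also chosen with earlier results of these data known. Of 35 upstream regulators tested, shOpa1 had 13 higher and 3 lower than shNT (37.1% and 8.57% of the list, 14% and 14.8% of all genes), with a median log2 fold change of 0.13 (0.01 over all genes). Myc, a growth factor-responsive transcription factor, rose 1.81-fold (18.4 to 33.4 CPM, edgeR adjusted p = 6.43e-05). Ppard, a fatty acid-sensing nuclear receptor, rose 1.6-fold (adjusted p = 7.5e-06), and Mybbp1a, a known repressor of PGC-1α, rose 1.31-fold (5.07e-06). Fnip1, a partner of folliculin that restrains AMP kinase signalling, fell 1.4-fold (edgeR adjusted p = 2.34e-05), and Nrip1, a corepressor of nuclear receptors, fell 1.43-fold (0.0101). In the double knockdown against shMtfr1l, 4 were higher and 4 lower (11.4% each, against 10.2% and 11.3% of all genes). Myc (1.72-fold, edgeR adjusted p = 0.000333), Mybbp1a (1.29-fold) and Kat2a (1.35-fold), the acetyltransferase that represses PGC-1α, rose. Fnip1 fell 1.37-fold (edgeR adjusted p = 8.69e-05). In shMtfr1l against shNT 5 were higher and 0 lower (14.3% and 0%, against 5% and 4.79% of all genes), among them both catalytic subunits of AMP kinase. Prkaa2 rose 1.64-fold (edgeR adjusted p = 0.00188) and Prkaa1 1.26-fold (0.00968), and Mef2d, a muscle transcription factor, rose 1.26-fold (0.0335). Without shMtfr1l replicate 1, 1 was higher, Prkaa2 (log2 fold change 0.67, edgeR adjusted p = 0.0147), and the calls of Prkaa1 (0.0574) and Mef2d (0.118) were lost. Calls over all genes were 921 in that fit and 1387 with the library.

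Of 31 tested genes that PGC-1 coactivators and ERRs are known to activate, 2 were higher and 9 lower in shOpa1 against shNT (6.45% and 29% of the list, 14% and 14.8% of all genes). In the double knockdown against shMtfr1l, 1 was higher and 10 lower (3.23% and 32.3%, against 10.2% and 11.3%). The median log2 fold change was -0.02 and -0.20, against 0.01 and 0.00 over all genes. Mfn2, a mitochondrial fusion protein, fell 1.82-fold in shOpa1 (edgeR adjusted p = 6.19e-08), Acadm, an enzyme of fatty acid oxidation, fell 1.59-fold (5.49e-06), and Slc2a4, the insulin-responsive glucose transporter, fell 1.71-fold (0.000141). Vegfa, which can also respond to hypoxia, rose 1.4-fold (edgeR adjusted p = 5.12e-06). In shMtfr1l against shNT 8 of the 31 were higher and 0 lower (25.8% and 0%, against 5% and 4.79%). Mb (myoglobin) rose 3.18-fold (10.1 to 32.05 CPM, edgeR adjusted p = 1.09e-06) and Lpl (lipoprotein lipase) 1.32-fold (1.59e-05). Without shMtfr1l replicate 1, 4 were higher and 0 lower, where all genes gave 921 calls in place of 1387. Mb (edgeR adjusted p = 1.77e-05) and Lpl (0.00019) passed. In the double knockdown against shMtfr1l, 1 was then higher and 7 lower, and the share of all genes in that fit is not given here. Of the 8 cardiomyocyte markers, 6 were higher and 1 lower in shMtfr1l, 6 were lower in shOpa1, and 8 were lower in the double knockdown against shMtfr1l. Their part in these counts was not tested.

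Genes of the machinery downstream were called in both directions. Of 22 genes of mitochondrial DNA maintenance and transcription, 4 were higher and 3 lower in shOpa1 against shNT (18.2% and 13.6%, against 14% and 14.8% of all genes). Lig3, a mitochondrial DNA ligase, rose 1.25-fold (edgeR adjusted p = 0.00571) and Lonp1, a protease that degrades TFAM, rose 1.14-fold (0.0178). Rrm2b, a subunit of ribonucleotide reductase and a p53 target, fell 1.87-fold (edgeR adjusted p = 0.000286). In shMtfr1l 1 was higher (4.55%, against 5% of all genes), Slc25a36, a pyrimidine nucleotide carrier (1.39-fold, edgeR adjusted p = 4.35e-05), and 1 lower (4.55%, against 4.79%), Mpv17 (1.2-fold, 0.0298). Once shMtfr1l replicate 1 was left out, Slc25a36 passed (edgeR adjusted p = 0.000186) and Mpv17 did not (0.106). Of 23 genes of mitochondrial RNA processing, 3 were higher and 1 lower in shOpa1 (13% and 4.35%, against 14% and 14.8%). Tbrg4 (FASTKD4), which stabilises mitochondrial transcripts, rose 1.46-fold (edgeR adjusted p = 0.000161). Of 74 nuclear respiratory chain genes, 7 were higher and 6 lower in shOpa1 (9.46% and 8.11%, against 14% and 14.8%). In shMtfr1l 11 were higher and 2 lower (14.9% and 2.7%, against 5% and 4.79%). Among the subunits of ATP synthase, Atp5b, the catalytic one, rose 1.22-fold there (edgeR adjusted p = 0.000143), while Atp5d fell 1.35-fold (3.47e-05) and Atp5f1 fell 1.17-fold (0.0358). Leaving out shMtfr1l replicate 1, 7 were higher and 1 lower, where all genes gave 921 calls in place of 1387. Atp5f1 then did not pass (edgeR adjusted p = 0.147). None of the mitochondrially encoded genes searched for has a row in the count tables, so transcripts of mitochondrial DNA were not analysed here.

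**Figure D4:**
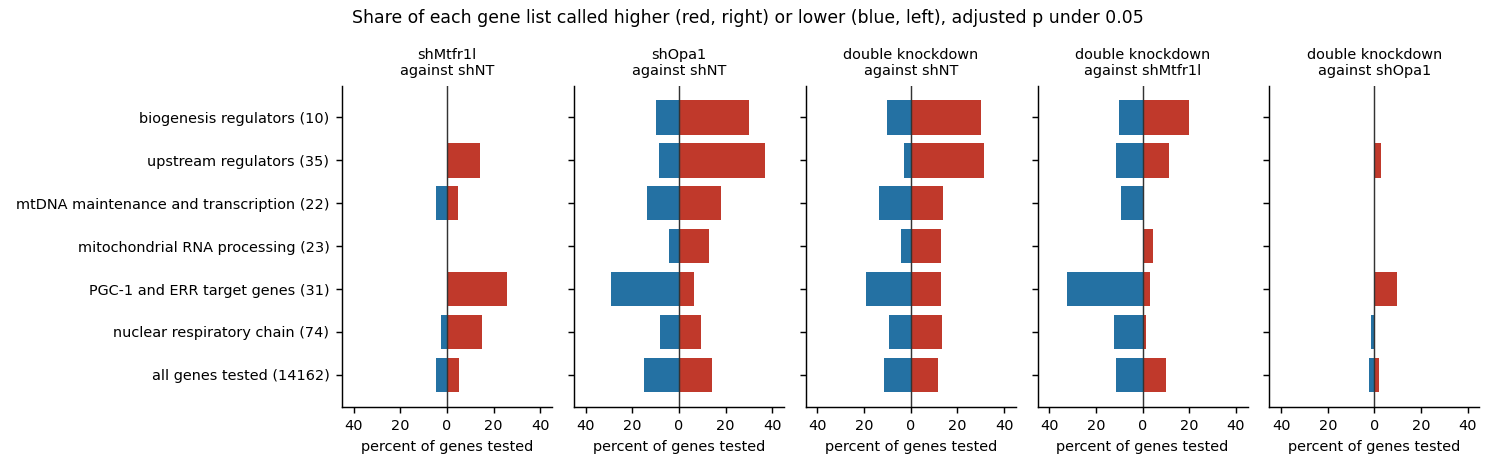
Percent of the tested genes of each list (rows, number tested in brackets) called higher (red, to the right) or lower (blue, to the left) at an adjusted p under 0.05 in 5 comparisons of the second set, with all genes tested in the last row. Of the 31 PGC-1 and ERR target genes, 8 were higher in shMtfr1l against shNT, and 9 and 10 were lower in shOpa1 against shNT and in the double knockdown against shMtfr1l.

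Over the 12 libraries, which include the group differences, the regulators fell into patterns that can be described by Pearson's r of log2 CPM. Polg and Pprc1 (r = 0.875), Polg and Esrra (0.822) and Pprc1 and Esrra (0.803) varied together. Ppargc1a ran opposite to Polg (r = -0.817), Pprc1 (-0.728) and Esrra (-0.69) and with Esrrg (0.64), while its r with Ppargc1b was 0.44. Nrf1 and Tfam varied together (r = 0.773), within a narrow range of levels. Over the 12146 genes that averaged 2 CPM or more, the nearest to Ppargc1a were Tead2 (r = 0.982), Stc2 (0.978) and Shisa2 (0.974). Nearest to Ppargc1b were Tnnc1 (0.872), Efhd1 (0.857) and Golga7 (0.835), of which Tnnc1 encodes cardiac troponin C. For Esrra they were Gsk3b (0.945), Prdx6 (0.941) and Tmem101 (0.935), and for Tfam Hmgb2 (0.864), Sfxn5 (0.844) and Ccr2 (0.841), Ccr2 being a chemokine receptor of monocytes. Libraries share groups and depth, so these are descriptions of 12 points.

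The first-set pair gave 1 summed sample for each condition, of 67068683 counts for shNT and 62923192 for shMtfr1l, with a labelled knockdown of 85%. Mtfr1l was 79.2 CPM in shNT and 8.73 CPM in shMtfr1l. Of the 10 regulators, 2 were more than 1.25-fold higher in shMtfr1l and 0 lower, where 14.5% of 15198 genes were higher and 20.1% lower. Esrrg was 5.06 CPM in shNT and 7.19 in shMtfr1l, a ratio of 1.42 with an exact 95% interval of 1.23 to 1.64. Ppargc1b was 9.86 and 13.65 CPM, a ratio of 1.38 (1.25 to 1.53). These intervals cover counting error only, and since each read of a pair was counted, they are too narrow. Ppargc1a did not show the difference of the second set. It was 3.68 CPM in shNT and 3.6 in shMtfr1l, a ratio of 0.98 (0.814 to 1.18), and its 3 count columns ran from 2.98 to 4.64 CPM in shNT and from 2.97 to 4.35 in shMtfr1l. Gabpa (79.85 and 98.9 CPM), Tfb2m (11.3 and 13.4) and Tfam (23.75 and 26.9) were 1.24, 1.19 and 1.13 times as high in shMtfr1l. Pprc1, Esrra, Nrf1 and Polg had ratios from 1.035 (Pprc1) to 1.103 (Esrra). The tables were normalised separately, so levels cannot be set side by side between them, and the difference between the sets was not tested.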

How the data were processed

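RNA was sequenced in bulk, and the authors deposited raw counts per gene made with featureCounts 2.0.6, per the file headers, on the UCSC gene annotation of mm10 with reverse-strand counting and each mate of a pair counted singly. Exonic length is another column of the deposited tables and served for levels per kilobase. Per the submitters' processing notes, FastQC, DESeq2 and mm10 were also used. Which aligner made the reads' positions was not given in the sources used here. Counts were scaled with TMM and filtered with filterByExpr (14162 of 23420 genes kept), and the 12 second-set libraries were fitted together with edgeR 4.0.16 (quasi-likelihood test, two-sided, Benjamini-Hochberg over all genes, called under 0.05) in R 4.3.3. Alternatives were DESeq2 1.42.0, its size factors, no filter, a replicate block, each library or replicate left out, and the compared groups alone. Robust moderation, the newer quasi-likelihood method, averaged effects, and lists without shMtfr1l replicate 1 were added after seeing the data. Total counts were 16205862 to 25317069 and the common biological coefficient of variation 12.04%. Exact permutation of 3 against 3 libraries cannot go below p = 0.1, so single genes rest on the fit. Within groups, pairs of libraries had a chi-square per gene from 5.37 to 10.3, above sampling noise.

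Replicate numbers mark days in the titles, which pairs libraries by label. Deviations from group means correlated over 0.1 in 1 of 18 same-numbered pairs and under -0.1 in 3 (r from -0.357 to 0.19). The 3 count columns of each first-set sample were summed and not tested. Another 12 count columns could not be tied to labels and were not used. The regulators and gene lists were chosen with earlier results of these data known. Named genes were the 10 regulators, the targeted genes, up to 3 called genes per list, comparison and direction with the smallest adjusted p (a selection is printed), and the 3 genes most correlated with each of 4 regulators. Genes that overlap the regulators, Mef2c and the adipocyte and cardiomyocyte markers are named besides. The test was tried on simulated counts first.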

Additional observations from a re-analysis of the deposited data

Results flagged for a closer look

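For 5 genes of the lists around the regulators, the effect of one knockdown differed with the other by the interaction test, and all 5 differences were negative. Mb differed by -1.22 on the log2 scale (edgeR adjusted p = 0.00799): the Mtfr1l hairpin raised it by 1.67 in the control background and stood at 0.45 with Opa1 lowered. Prkaa2 differed by -0.84 (edgeR adjusted p = 0.0246), with 0.72 in the control background and -0.12 with Opa1 lowered. Slc25a36 differed by -0.54 (edgeR adjusted p = 0.00183), with 0.47 and -0.07. Lpl differed by -0.48 (edgeR adjusted p = 0.000729), with 0.40 and -0.07. Ppard differed by -0.50 (edgeR adjusted p = 0.0453), where the Opa1 hairpin raised it by 0.68 in the control background and stood at 0.19 with Mtfr1l lowered. These 5 were 2 of 35 upstream regulators, 1 of 22 genes of mitochondrial DNA maintenance and transcription, and 2 of 31 PGC-1 and ERR target genes. None passed among the 10 regulators, 23 genes of mitochondrial RNA processing and 74 respiratory chain genes. Of all genes, 2.86% passed this test, 1.59% with a negative term. Over the lists together the share was near that of all genes, so the number is no result about the lists. Among cell type markers, the cardiomyocyte genes Myh6 (-0.76, edgeR adjusted p = 0.00996) and Tnni3 (-0.91, 0.0233) also had a negative term. The fibroblast genes Col3a1 (0.31, edgeR adjusted p = 0.000168) and Tcf21 (0.43, 0.00855) and the mesothelial gene Msln (0.72, 0.00765) had a positive one, and their part in the 5 differences was not tested. Both targets were less reduced in the double knockdown, by 0.73 (Mtfr1l) and 1.03 (Opa1) on the log2 scale, and the part of this was not tested.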

How the results depend on the processing

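Of 1010 comparisons of a regulator's fold change with an alternative, 977 kept their side of the threshold, 21 lost a call, 12 gained one and 0 called values changed sign. A further reading of the 822 that were called in neither shows 49 of opposite sign. In shMtfr1l against shNT the number of regulators called was 0, but 1 without the filter on low counts, 1 with the replicate block, 1 with robust moderation, 1 with the newer quasi-likelihood method, 2 with DESeq2 and 2 with the fit of these groups alone. The replicate block changed no other call of a regulator. Leaving out libraries gave 0 to 1 regulators in shMtfr1l against shNT, 2 to 4 in the double knockdown against shNT and 1 to 3 against shMtfr1l. Over all genes it gave 638 to 1165 calls in shMtfr1l against shNT, 2121 to 2975 in the double knockdown against shNT, 1769 to 2822 against shMtfr1l, 132 to 561 against shOpa1 and 113 to 453 for the interaction. Without shMtfr1l replicate 1, shMtfr1l against shNT had 921 calls (1387 with it) and the interaction 267 (405). In shOpa1 against shNT, leaving out libraries gave 3 to 5 regulators and 2926 to 3670 calls over all genes. The double knockdown against shNT had 2 regulators called, in place of 4, without shNT replicate 1, double knockdown replicate 1 or double knockdown replicate 2. Without the filter, all-gene calls were 1024 in the double knockdown against shOpa1 (597 with it) and 719 for the interaction (405 with it), and DESeq2 called 648 for the interaction. The cause was not tested. Of 80 group levels under another scaling, 80 moved by less than 1 SD. In the first-set pair without TMM, Ppargc1a had a log2 difference of 0.02 in place of -0.03. Ppargc1a (15 to 168 counts per library), Ppargc1b (43 to 144) and Esrrg (10 to 79) have the fewest counts of the 10. Robust moderation and the newer method were chosen after seeing the data.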
